A study of Homo sapiens with 6 samples.

Results

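The 60 genes described here encode eukaryotic translation factors, taken by gene symbol as the protein-coding genes whose names begin with EIF1 to EIF6 or with EEF1 or EEF2. EIF2AK2, EIF1AX and EEF1E1 match those prefixes and were left out of the set. GENCODE release 29 holds 68 such symbols, 60 of them had transcripts in the tables, and the other 8 were not analysed here. The 60 genes stand among 11387 genes in all. They were measured in cultured cells of the human ocular melanoma line 92.1, in 3 libraries with ALKBH3 knocked down (labelled shALKBH3) and 3 control libraries (labelled NC, genotype wild type), all from total RNA of cells grown in the same serum-supplemented medium. ALKBH3 is a demethylase of alkylated DNA and of 1-methyladenosine in RNA, and the series asks how expression differs after its knockdown. The labels name neither a hairpin in the NC cells, nor the number of hairpins, nor separate cultures for the 3 libraries of a group, so a p-value here covers the spread among libraries only, and that spread may be technical.

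Translation factors carry an mRNA through the cycle of protein synthesis. Initiation factors (eIF) bring the initiator tRNA to the small ribosomal subunit, load it at the capped end of the mRNA, scan for the start codon and join the large subunit, and elongation factors (eEF) deliver aminoacyl-tRNA and move the ribosome along. The symbols also take in regulators that are not factors themselves: kinases of eIF2 and eEF2, binding proteins of eIF4E, and methyltransferases of eEF1A and eEF2. EIF4A3, a relative of the eIF4A helicases, belongs to the exon junction complex. Many mRNAs of elongation factors and ribosomal proteins begin with a C followed by a run of pyrimidines at the cap, the 5' terminal oligopyrimidine (TOP) start, through which their translation is tied to mTOR signalling.

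RefSeq start sites were read for the factors, searching in the direction of transcription for a C at the start followed by at least 4 further pyrimidines (C or T). Such a start was annotated for 12 of the 46 tested factors that had an entry. They are shown for the 5 of these 12 factors whose knockdown libraries all lay below the controls, picked by those values. For 6 of the 34 tested factors with another start, and for 12.0% of all tested genes, the knockdown libraries also all lay below. The start is also shown for EEF1A1, the most abundant factor, and for EIF4A2, whose mean was higher in the knockdown. Each line runs 5' to 3' from 10 bases before the annotated start to 15 bases from it, in RefSeq on GRCh38.p14, with the run of pyrimidines from the start in capitals.
EEF1B2 (chr2:206159885-206159909, plus strand): ctcttcgggtCCTTTTTCCTCTCTT
EEF2 (chr19:3985449-3985473, minus strand): cgtcagcgttCTCTTCCgccgtcgt
EIF4B (chr12:53006446-53006470, plus strand): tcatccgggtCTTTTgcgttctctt
EIF3K (chr19:38619178-38619202, plus strand): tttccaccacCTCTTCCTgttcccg
EIF2S3 (chrX:24054946-24054970, plus strand): gatttccttcCTCTTTTggcaacat
EEF1A1 (chr6:73521018-73521042, minus strand): cgtgaacgttCTTTTTCgcaacggg
EIF4A2 (chr3:186783567-186783591, plus strand): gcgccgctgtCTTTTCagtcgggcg

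Values are FPKM, fragments scaled to transcript length and library size by the authors, summed over the listed transcripts of a gene, so that the depth behind a value is not known. ALKBH3 (ENSG00000166199, on chromosome 11), the target of the knockdown, fell to 3.29, 3.60 and 4.24 FPKM in shALKBH3 replicates 1, 2 and 3, against 10.5, 10.6 and 9.19 FPKM in NC replicates 1, 2 and 3, and the target was lower in each knockdown library (log2 difference -1.24, SE 0.118, limma adjusted p = 0.0079). Listed FPKM summed to between 326875 and 333987 in shALKBH3 libraries and to between 340950 and 361268 in NC libraries. Every knockdown sum was the lower, and the values were not rescaled for this in the main test. Of 8 melanocytic markers, MITF and GPR143 had listed transcripts and the other 6 had none. MITF, the melanocyte lineage regulator, averaged 11.8 ± 1.95 FPKM in shALKBH3 and 6.91 ± 3.24 FPKM in NC libraries (SD, 3 libraries each), with an adjusted p of 0.315. GPR143, a pigment cell receptor, averaged 12.4 ± 1.32 FPKM in shALKBH3 and 12.7 ± 1.48 FPKM in NC libraries. Of 4 fibroblast markers 2 were listed, COL1A1 at 22.0 ± 2.37 FPKM in shALKBH3 and 21.3 ± 2.53 FPKM in NC libraries, and COL1A2 at 0.308 to 0.628 FPKM in shALKBH3 libraries, against 7.22, 0.473 and 0.783 FPKM in NC replicates 1, 2 and 3. There were listed transcripts for none of the 4 epithelial, 4 immune and 3 endothelial ones. In such bulk libraries fewer cells of a type and less RNA per cell cannot be told apart.

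None of the 59 tested factors passed the threshold, a limma adjusted p of 0.05 over the 10475 genes that averaged 1 FPKM or more. Across all tested genes 1.28% rose and 0.477% fell at that threshold, 1.76% in all. EIF5AL1, an intronless near-copy of EIF5A, had a mean below 1 FPKM and was not tested. The smallest adjusted p among the factors was 0.0878, for EIF3K. At an unadjusted p under 0.05, 11 factors were lower (18.6%, with 8.15% of all tested genes) and 3 were higher (5.08%, with 8.98% of all tested genes). With every library rescaled to an equal sum of listed FPKM these counts were 5 lower (8.47%, with 4.53% of all tested genes) and 5 higher (8.47%, with 12.9% of all tested genes). The lower count was 6 without NC replicate 1 and 7 without shALKBH3 replicate 3. The higher count was 1 without shALKBH3 replicate 2 or NC replicate 3 and 5 without NC replicate 2. Shares of all tested genes were not counted with a library left out. Whether those changes were particular to the factors was not tested. As deposited, the 11 lower ones were EIF3K, EEF1B2, EIF4B, EIF3I, EIF2B4, EEF2, EIF5A, EIF2S2, EIF1, EIF2S3 and EIF3CL, and the 3 higher ones were EIF2AK1, EIF2B5 and EIF4A1.

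Small negative differences were frequent among the factors. The log2 difference (shALKBH3 minus NC, of FPKM + 1) was negative for 43 of 59 factors (72.9%), against 51.3% of all tested genes, with a median of -0.12 for the factors and -0.0096 for all tested genes. All 3 knockdown libraries lay below all 3 controls for 14 factors (23.7%, with 12.0% of all tested genes), and above them for 2 factors (3.39%, with 12.9% of all tested genes). Scaling moved the factors and all genes together. With equal sums of listed FPKM, 33 of 59 factors (55.9%) and 39.3% of all tested genes were negative, the median of the factors was -0.029 against 0.0713 for all tested genes, and the libraries lay below the controls for 8 factors and above them for 7, with 6.54% and 17.9% of all tested genes.

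**Figure D1:**
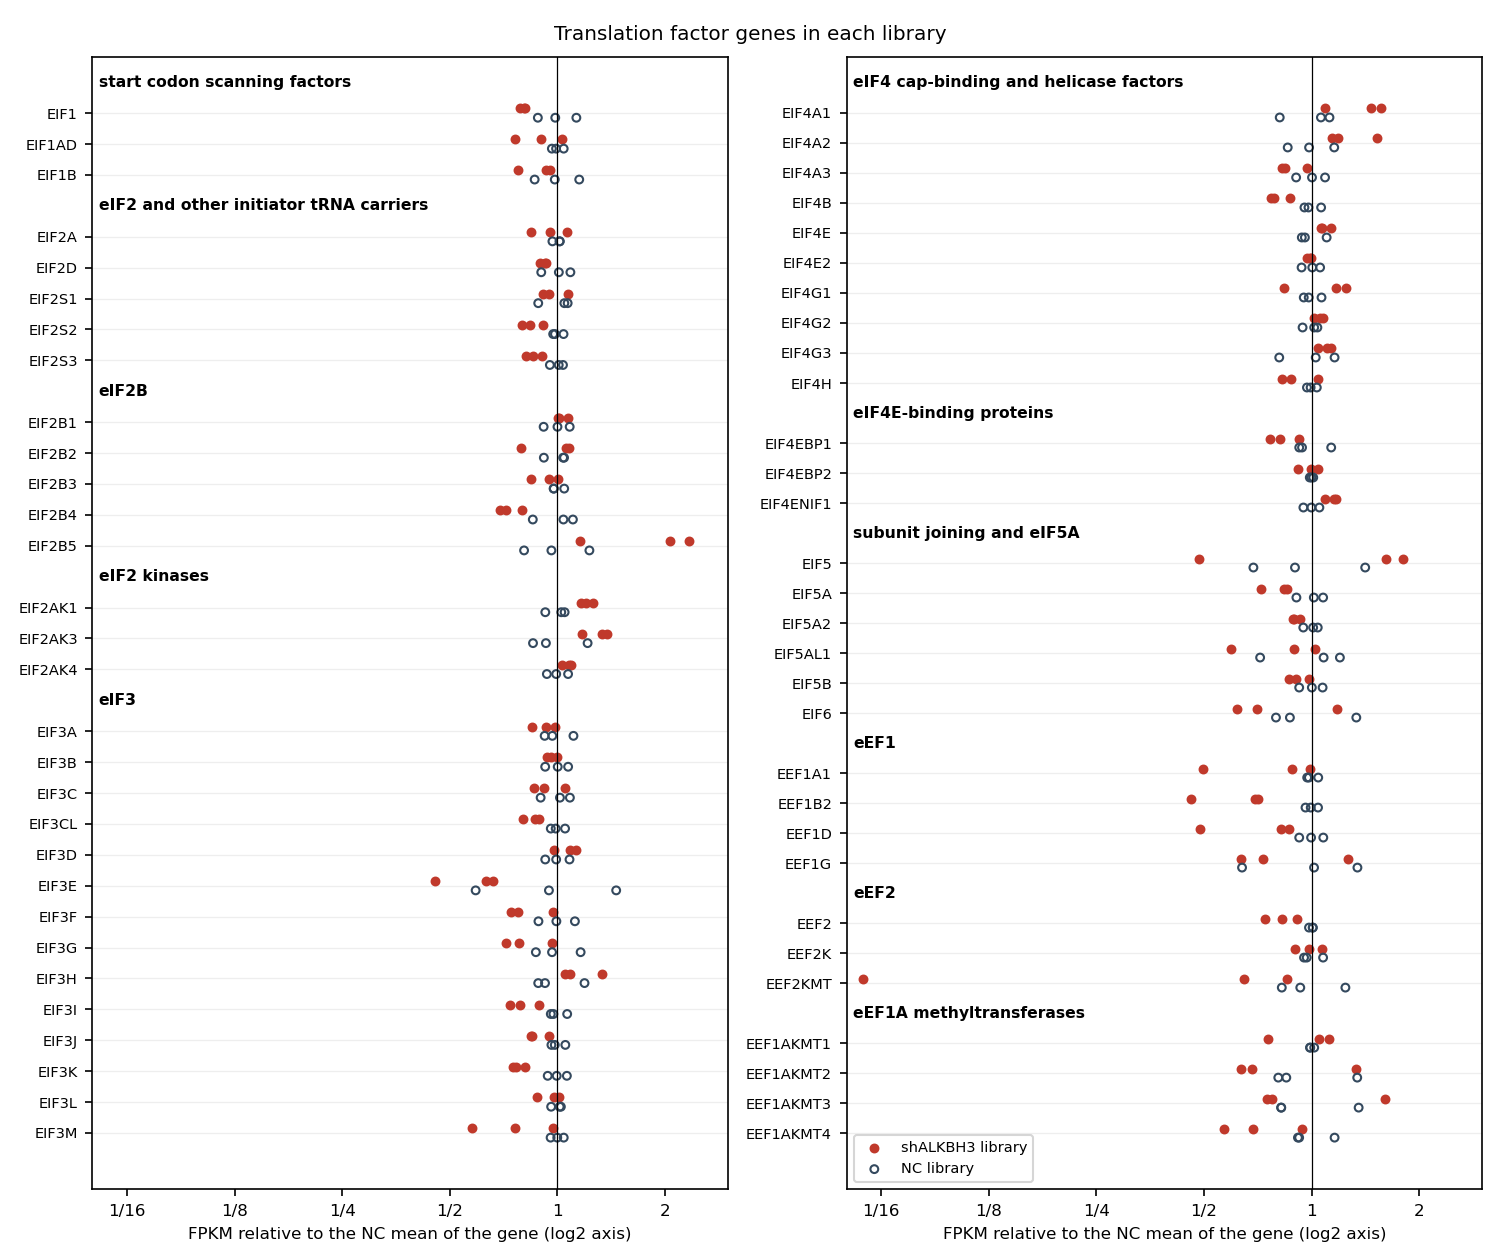
FPKM of each translation factor gene in each library, divided by the mean of its NC libraries, on a log2 axis, with shALKBH3 libraries as filled red points and NC libraries as open points. Most factors lie within a narrow band around 1, while EEF1B2, EEF2, EIF4B and EIF3K have all 3 knockdown libraries below the controls, and EIF5, EIF6 and EEF1G scatter within both groups.

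The eEF1 genes had a median log2 difference of -0.45 and the eEF2 genes, with the eEF2 kinase and methyltransferase, of -0.28. With length and GC content corrected for, EEF1A1, EEF1B2, EEF1D and EEF1G had log2 differences of -0.36, -0.54, -0.21 and -0.044. Under quantile normalization the eEF2 median was -0.10, and among genes averaging 5 FPKM or more, which leaves out EEF2KMT, it was -0.15. EEF1B2, a subunit of the exchange factor that reloads eEF1A with GTP, was at 236, 240 and 156 FPKM in shALKBH3 replicates 1, 2 and 3, against 355, 338 and 327 FPKM in NC replicates 1, 2 and 3. All 3 knockdown values were below the controls, with replicate 3 the lowest. Its mean was 38.0% lower in shALKBH3, a log2 difference of -0.71 (SE 0.173, limma adjusted p = 0.126). For its most abundant transcript alone, EEF1B2-202, the log2 difference was -0.13, and that transcript varied within the controls, at 47.2, 286 and 245 FPKM in NC replicates 1, 2 and 3. EEF2, the translocase that moves the ribosome by a codon, was at 727, 593 and 659 FPKM in shALKBH3 replicates 1, 2 and 3, against 784, 804 and 803 FPKM in NC replicates 1, 2 and 3. The groups did not overlap (log2 difference -0.28, SE 0.0867, adjusted p = 0.200).

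EEF1A1, which delivers aminoacyl-tRNA to the ribosome, was at 2874, 2571 and 1448 FPKM in shALKBH3 replicates 1, 2 and 3, against 2828, 2859 and 3037 FPKM in NC replicates 1, 2 and 3. Replicate 3 was far below the other knockdown libraries, replicate 1 lay among the controls, and the log2 difference was -0.40 (SE 0.252, adjusted p = 0.458). In that library the main transcript EEF1A1-203 was at 663 FPKM, against 2395 to 2871 FPKM in the other 5, while EEF1A1-210 was at 520 FPKM. EEF1A1 has many processed pseudogenes, so its values are less certain. EEF1D, another exchange factor subunit, was at 45.8, 77.1 and 81.2 FPKM in shALKBH3 replicates 1, 2 and 3, against 93.5, 86.6 and 101 FPKM in NC replicates 1, 2 and 3 (log2 difference -0.50, adjusted p = 0.320). EEF1G, the scaffold of that complex, was scattered in both groups, between 368 and 734 FPKM in shALKBH3 and between 370 and 778 FPKM in NC libraries.

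The enzymes that modify or inhibit elongation factors were expressed far lower. EEF2K, which inactivates eEF2 by phosphorylation, averaged 5.39 ± 0.475 FPKM in shALKBH3 and 5.47 ± 0.370 FPKM in NC libraries (SD, 3 libraries each). EEF2KMT, a lysine methyltransferase of eEF2, was at 2.27, 0.148 and 1.72 FPKM in shALKBH3 replicates 1, 2 and 3, against 2.47, 2.19 and 3.31 FPKM in NC replicates 1, 2 and 3, with replicate 2 far the lowest (log2 difference -0.74, SE 0.401, adjusted p = 0.395). The 4 listed eEF1A methyltransferase genes had log2 differences from -0.23 to 0.016. EEF1AKMT1, the most abundant of them, was at 3.41, 4.73 and 5.05 FPKM in shALKBH3 replicates 1, 2 and 3, against 4.47, 4.48 and 4.59 FPKM in NC replicates 1, 2 and 3, so the controls lay within the knockdown range. EEF1AKMT4, with the smallest p of them, was at 1.09, 0.796 and 0.660 FPKM in shALKBH3 replicates 1, 2 and 3, against 1.35, 1.07 and 1.06 FPKM in NC replicates 1, 2 and 3, and the groups overlapped (adjusted p = 0.467).

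The summed FPKM of the eEF1 genes was 3524, 3622 and 2107 in shALKBH3 replicates 1, 2 and 3, against 3646, 4062 and 4053 in NC replicates 1, 2 and 3. The eEF1 and eEF2 genes together held 59.7%, 58.5% and 49.4% of the FPKM of all factors in shALKBH3 replicates 1, 2 and 3, and 57.2%, 60.5% and 59.7% in NC replicates 1, 2 and 3. Without them the remaining factors summed to 2877, 2992 and 2840 FPKM in shALKBH3 replicates 1, 2 and 3, against 3325, 3187 and 3282 FPKM in NC replicates 1, 2 and 3, and those sums did not overlap. All listed genes summed lower in the knockdown libraries too. All factors together held 2.14%, 2.21% and 1.68% of the matched FPKM in shALKBH3 replicates 1, 2 and 3. In NC replicates 1, 2 and 3 they held 2.16%, 2.37% and 2.26%, and those shares overlapped between the groups. Such a share was not taken for the factors without eEF1 and eEF2.

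**Figure D2:**
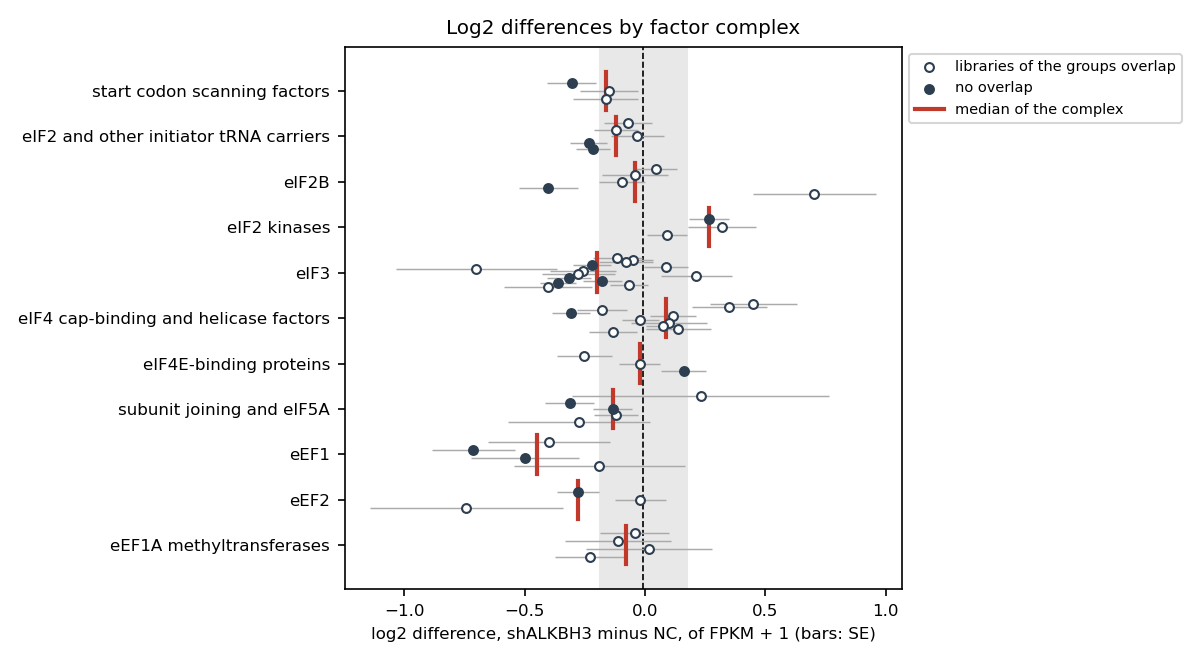
Log2 difference, shALKBH3 minus NC, of each tested translation factor gene with its standard error, by factor complex, with the median of each complex as a red bar. The grey band and dashed line are the middle 50% and the median of all 10475 tested genes. The eEF1 median of -0.45 is the lowest and the eIF2 kinase median of 0.26 the highest, and filled points are genes whose libraries do not overlap between the groups.

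Among the eIF4 factors, which bind the cap and unwind the mRNA leader, genes of the same complex lay on opposite sides of 0. EIF4B, the cofactor that stimulates the eIF4A helicase, was at 234, 264 and 238 FPKM in shALKBH3 replicates 1, 2 and 3, against 297, 323 and 290 FPKM in NC replicates 1, 2 and 3. The groups did not overlap, and the log2 difference was -0.31 (SE 0.0787, limma adjusted p = 0.140). It was -0.21 with equal sums of listed FPKM and -0.26 under quantile normalization. With transcript length and GC content corrected for it was -0.38 with a limma adjusted p of 0.0235. That setting called 58 of the 10475 tested genes lower and 186 higher. EIF4B was the only factor past the threshold in any of the alternatives run on gene values. Its main transcript EIF4B-201 was at 203, 220 and 209 FPKM in shALKBH3 replicates 1, 2 and 3, against 260, 276 and 259 FPKM in NC replicates 1, 2 and 3.

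The helicase genes EIF4A1 and EIF4A2 had positive differences. EIF4A1 was at 126, 134 and 93.8 FPKM in shALKBH3 replicates 1, 2 and 3, against 70.0, 96.4 and 91.2 FPKM in NC replicates 1, 2 and 3, and the groups overlapped (log2 difference 0.45, SE 0.179, adjusted p = 0.284). In shALKBH3 replicate 2 the transcript EIF4A1-225 was at 82.8 FPKM and in the other 5 libraries at 1.24 to 3.40 FPKM, so the transcripts of this gene were divided unevenly between libraries. EIF4A2 averaged 43.7 ± 7.23 FPKM in shALKBH3 and 34.0 ± 5.12 FPKM in NC libraries (SD, 3 libraries each, adjusted p = 0.320). EIF4E, which holds the cap itself, averaged 10.8 ± 0.370 FPKM in shALKBH3 and 9.96 ± 0.889 FPKM in NC libraries, and its relative EIF4E2 averaged 39.1 ± 0.504 FPKM in shALKBH3 and 39.7 ± 2.37 FPKM in NC libraries. The scaffold gene EIF4G1 averaged 43.3 ± 8.70 FPKM in shALKBH3 and 39.9 ± 2.38 FPKM in NC libraries, and EIF4G2, a related scaffold without an eIF4E site, 132 ± 3.94 FPKM in shALKBH3 and 125 ± 6.22 FPKM in NC libraries. None of these 4 genes passed the test, and each overlapped between the groups.

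The genes of proteins that bind eIF4E had differences of both signs. EIF4EBP1 and EIF4EBP2 encode repressors that mTOR signalling releases from eIF4E, and both were negative as deposited (log2 differences -0.25 and -0.022). EIF4EBP1 was at 99.4, 88.1 and 82.4 FPKM in shALKBH3 replicates 1, 2 and 3, against 99.4, 101 and 122 FPKM in NC replicates 1, 2 and 3, with shALKBH3 replicate 1 just above NC replicate 1 (log2 difference -0.25, SE 0.114, limma adjusted p = 0.324). With length and GC content corrected for, the sign turned, to 0.098. EIF4EBP2 averaged 13.3 ± 0.861 FPKM in shALKBH3 and 13.5 ± 0.151 FPKM in NC libraries (SD, 3 libraries each). EIF4ENIF1, which carries eIF4E into the nucleus, had 5.91, 5.51 and 5.81 FPKM in shALKBH3 replicates 1, 2 and 3, against 5.03, 5.30 and 4.78 FPKM in NC replicates 1, 2 and 3, all knockdown libraries being the higher (log2 difference 0.16, adjusted p = 0.422).

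eIF2 carries the initiator tRNA, and its beta and gamma subunit genes were lower by small amounts. EIF2S2 (beta) was at 105, 120 and 111 FPKM in shALKBH3 replicates 1, 2 and 3, against 128, 130 and 137 FPKM in NC replicates 1, 2 and 3. EIF2S3 (gamma) was at 117, 129 and 122 FPKM in shALKBH3 replicates 1, 2 and 3, against 144, 148 and 136 FPKM in NC replicates 1, 2 and 3. Neither gene overlapped between the groups, with log2 differences of -0.23 and -0.22 (limma adjusted p = 0.215 and 0.217). EIF2S1, the alpha subunit that the eIF2 kinases phosphorylate, averaged 28.0 ± 2.40 FPKM in shALKBH3 and 28.7 ± 2.89 FPKM in NC libraries (SD, 3 libraries each) and its groups overlapped. The levels per length of the beta and gamma genes were more than 3 times that of the alpha gene in every library. EIF2A and EIF2D, which can deliver initiator tRNA without eIF2, had log2 differences of -0.071 and -0.12.

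eIF2B is the exchange factor that recharges eIF2 with GTP, and the genes of its subunits differed in sign. EIF2B5, the catalytic epsilon subunit, was at 8.37, 4.14 and 7.40 FPKM in shALKBH3 replicates 1, 2 and 3, against 2.89, 4.41 and 3.45 FPKM in NC replicates 1, 2 and 3. Knockdown replicate 2 lay among the controls, and the log2 difference was 0.70 (SE 0.256, limma adjusted p = 0.250). The difference sat in EIF2B5-201, at 7.05, 2.86 and 5.63 FPKM in shALKBH3 replicates 1, 2 and 3, against 1.39, 3.39 and 1.48 FPKM in NC replicates 1, 2 and 3. EIF2B4, the delta subunit, was at 8.98, 9.95 and 8.63 FPKM in shALKBH3 replicates 1, 2 and 3, against 13.8, 10.7 and 13.0 FPKM in NC replicates 1, 2 and 3, with no overlap (log2 difference -0.40, adjusted p = 0.192). EIF2B1, the alpha subunit and the most abundant of the 5, was at 22.5, 23.7 and 22.3 FPKM in shALKBH3 replicates 1, 2 and 3, against 22.2, 20.3 and 24.0 FPKM in NC replicates 1, 2 and 3. It overlapped between the groups, and EIF2B2 and EIF2B3 had log2 differences of -0.042 and -0.096. The summed FPKM of the 5 subunit genes was 56.6 ± 1.28 in shALKBH3 and 57.1 ± 2.73 in NC libraries.

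The 3 eIF2 kinase genes in the set had positive differences as deposited, although EIF2AK4 turned to -0.023 with length and GC content corrected for and the main transcript of EIF2AK3 was at -0.23. EIF2AK1 (HRI), which responds to haem shortage and mitochondrial stress, was at 31.5, 34.0 and 32.6 FPKM in shALKBH3 replicates 1, 2 and 3, against 28.4, 27.8 and 25.1 FPKM in NC replicates 1, 2 and 3. The groups did not overlap (log2 difference 0.26, SE 0.0819, limma adjusted p = 0.200). EIF2AK3 (PERK), the kinase of the unfolded protein response, averaged 5.80 ± 0.486 FPKM in shALKBH3 and 4.48 ± 0.853 FPKM in NC libraries, and EIF2AK4 (GCN2), which senses uncharged tRNA, 22.0 ± 0.656 FPKM in shALKBH3 and 20.6 ± 1.41 FPKM in NC libraries (SD, 3 libraries each). Their adjusted p-values were 0.319 and 0.598. EIF2AK2 (PKR), the kinase activated by double-stranded RNA and not a member of the set, rose to 61.1, 71.2 and 68.7 FPKM in shALKBH3 replicates 1, 2 and 3, against 31.9, 36.4 and 30.1 FPKM in NC replicates 1, 2 and 3 (log2 difference 1.01, adjusted p = 0.0102). Leaving out shALKBH3 replicate 2, shALKBH3 replicate 3 or NC replicate 1 gave it adjusted p-values of 0.0585, 0.0706 and 0.0601. Whether the EIF2AK2 difference exceeds those of the other kinase genes was not tested.

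eIF3, the large scaffold on the small ribosomal subunit, was represented by 14 genes, 12 of them with negative differences and a median log2 difference of -0.20. With equal sums of listed FPKM, EIF3B, EIF3C and EIF3L turned positive, to 0.042, 0.011 and 0.026. EIF3K, a peripheral subunit, was at 203, 191 and 187 FPKM in shALKBH3 replicates 1, 2 and 3, against 249, 235 and 266 FPKM in NC replicates 1, 2 and 3. No knockdown library reached the controls, and the log2 difference was -0.36 (SE 0.0743, limma adjusted p = 0.0878). Corrected for length and GC content it was -0.14, and the transcripts of EIF3K are among the shortest of the set. EIF3I, a core subunit, was at 149, 132 and 124 FPKM in shALKBH3 replicates 1, 2 and 3, against 161, 164 and 179 FPKM in NC replicates 1, 2 and 3 (log2 difference -0.31, adjusted p = 0.183). EIF3J, the loosely bound subunit, and EIF3CL also did not overlap, with log2 differences of -0.18 and -0.22.

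EIF3C and EIF3CL are near-identical copies on chromosome 16, so their separate values are uncertain. Together they held 59.4, 60.5 and 62.5 FPKM in shALKBH3 replicates 1, 2 and 3, against 68.0, 72.4 and 63.1 FPKM in NC replicates 1, 2 and 3. The groups stayed apart, by a narrow margin. EIF3E had the largest mean difference of the complex, at 103, 149 and 143 FPKM in shALKBH3 replicates 1, 2 and 3, against 331, 134 and 214 FPKM in NC replicates 1, 2 and 3, but NC replicate 2 lay below 2 knockdown libraries (log2 difference -0.70, SE 0.335, adjusted p = 0.345). The RNA-binding core genes EIF3A and EIF3B and the cap-binding subunit gene EIF3D had log2 differences of -0.12, -0.050 and 0.087. EIF3H, with 0.21, was the other positive one, and both overlapped between the groups. Levels per length ran from 20.5 FPKM for EIF3F to 222 FPKM for EIF3K (means of the 6 libraries), a spread of 10.8-fold among genes whose proteins assemble in 1 complex. The summed FPKM of the complex was 1062, 1125 and 1035 in shALKBH3 replicates 1, 2 and 3, against 1383, 1222 and 1288 in NC replicates 1, 2 and 3.

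For start codon selection and subunit joining the differences were again small. EIF1, the gatekeeper of start codon choice, was at 87.3, 89.7 and 90.0 FPKM in shALKBH3 replicates 1, 2 and 3, against 125, 97.8 and 109 FPKM in NC replicates 1, 2 and 3, with no overlap (log2 difference -0.31, SE 0.101, limma adjusted p = 0.217). EIF5B, the GTPase of subunit joining, averaged 52.2 ± 3.53 FPKM in shALKBH3 and 56.9 ± 4.27 FPKM in NC libraries (SD, 3 libraries each). EIF5, which triggers GTP hydrolysis by eIF2, was widely spread, at 19.0, 63.6 and 71.1 FPKM in shALKBH3 replicates 1, 2 and 3, against 35.3, 55.6 and 27.0 FPKM in NC replicates 1, 2 and 3. EIF6, which keeps the ribosomal subunits apart, was similarly spread, from 33.9 to 64.6 FPKM in shALKBH3 and from 43.6 to 73.2 FPKM in NC libraries. The coefficient of variation exceeded 25% in shALKBH3 libraries for 12 factors and in NC libraries for 7, with medians over the 60 genes of 9.29% and 7.80%.

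EIF5A encodes the factor that relieves ribosomes stalled on proline-rich stretches and carries the modified residue hypusine. As a gene sum it was at 125, 105 and 123 FPKM in shALKBH3 replicates 1, 2 and 3, against 149, 133 and 158 FPKM in NC replicates 1, 2 and 3, without overlap (log2 difference -0.31, SE 0.102, limma adjusted p = 0.212). Its paralog EIF5A2 averaged 13.4 ± 0.354 FPKM in shALKBH3 and 14.9 ± 0.701 FPKM in NC libraries (SD, 3 libraries each, log2 difference -0.13, adjusted p = 0.434). For EIF5A-202, the most abundant transcript, the log2 difference had the other sign, 0.15.

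1 transcript of EIF5A was listed near 0 in the knockdown libraries. EIF5A-204 fell to 0.0904, 0 and 0.0679 FPKM in shALKBH3 replicates 1, 2 and 3, against 48.2, 19.5 and 45.3 FPKM in NC replicates 1, 2 and 3. It was called by the same test run over 19698 single transcripts (log2 difference -5.10, SE 0.365, limma adjusted p = 0.0114). There 0.122% of all transcripts were called lower and 0.350% higher, and EIF5A-204 was the only call among 162 tested transcripts of the factors. It averaged 0.0528 FPKM in shALKBH3 and 37.7 FPKM in NC libraries, so it was listed and tested only through the NC group. The call is therefore no separate support for a fall. Its share of the EIF5A sum was at most 0.0724% in shALKBH3 libraries and between 14.7% and 32.4% in NC libraries. Over the alternatives run its adjusted p lay between 0.0081 and 0.225, and leaving out shALKBH3 replicate 2 or 3 gave 0.0626 and 0.0542. EIF5A-206, which shares part of the first exon of EIF5A-204, was not analysed here, so how fragments were divided between these transcripts, and its part in the near-0 values, was not tested. The rest of EIF5A, without EIF5A-204, was at 125, 105 and 123 FPKM in shALKBH3 replicates 1, 2 and 3, against 100, 113 and 112 FPKM in NC replicates 1, 2 and 3, and those groups overlapped.

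**Figure D3:**
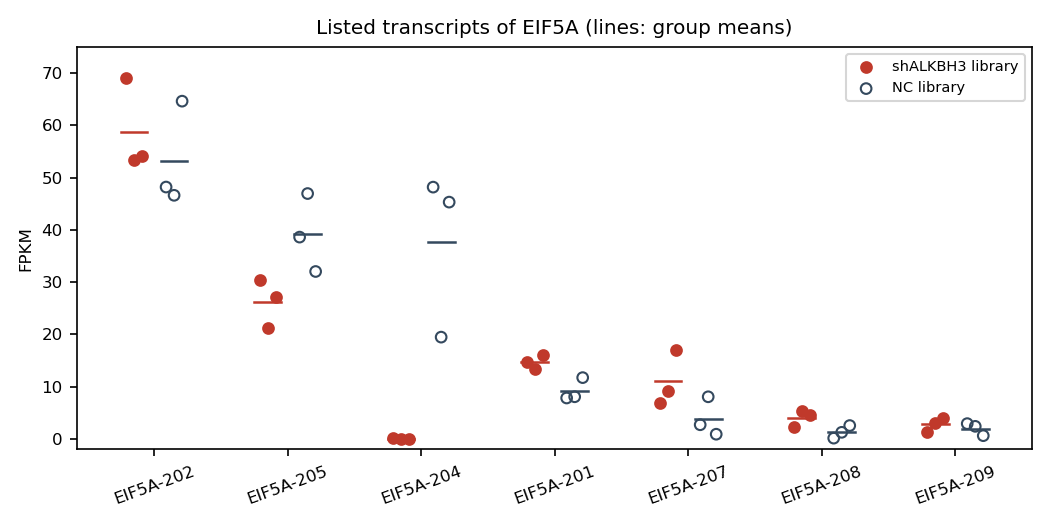
FPKM of the 7 listed EIF5A transcripts in each library, with shALKBH3 libraries as filled red points to the left of NC libraries as open points and group means as lines. EIF5A-204 lies near 0 in all 3 knockdown libraries and between 19.5 and 48.2 FPKM in the controls, while EIF5A-202 overlaps between the groups.

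The 7 listed EIF5A transcripts differ in where they start. In GENCODE release 29 (GRCh38) EIF5A-204 begins at position 7308371 of chromosome 17 on the plus strand with a first exon of 205 nucleotides, 1372 nucleotides downstream of the start of EIF5A-201. EIF5A-202, EIF5A-204, EIF5A-205 and EIF5A-208 have the same coding sequence of 462 nucleotides, so these transcripts encode the same protein. EIF5A-205 was at 30.5, 21.2 and 27.1 FPKM in shALKBH3 replicates 1, 2 and 3, against 38.6, 47.0 and 32.0 FPKM in NC replicates 1, 2 and 3 (log2 difference -0.56, limma adjusted p = 0.465). EIF5A-201 was at 14.6, 13.4 and 16.0 FPKM in shALKBH3 replicates 1, 2 and 3, against 7.83, 8.06 and 11.7 FPKM in NC replicates 1, 2 and 3 (log2 difference 0.64, adjusted p = 0.367). Neither overlapped between the groups. The 200 bases before the RefSeq start nearest to EIF5A-204 (2 nucleotides away) and to EIF5A-205 (5 nucleotides away) are shown. EIF5A-204 is the transcript called lower, and EIF5A-205 is another whose knockdown libraries all lay below the controls. The listed start nearest to that of EIF5A-204 is that of EIF5A-209, at position 7307993, and is not shown. Both stretches are 5' to 3' on the plus strand of GRCh38.p14, at chr17:7308173-7308372 and chr17:7307769-7307968. Capitals mark GGGCGG, a GC box searched on both strands together with CCAAT and TATAAA.
EIF5A-204: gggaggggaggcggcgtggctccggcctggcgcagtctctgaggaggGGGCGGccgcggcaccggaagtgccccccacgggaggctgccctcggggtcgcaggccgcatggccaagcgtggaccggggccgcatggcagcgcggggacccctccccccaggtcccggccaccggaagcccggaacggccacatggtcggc
EIF5A-205: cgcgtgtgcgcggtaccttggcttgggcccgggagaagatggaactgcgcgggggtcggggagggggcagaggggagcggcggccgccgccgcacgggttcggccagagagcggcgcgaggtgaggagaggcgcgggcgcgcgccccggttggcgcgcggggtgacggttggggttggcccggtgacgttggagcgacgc
Both stretches are rich in G and C (78.5% and 77.0%). The first holds 1 GGGCGG and the second none, and neither holds CCAAT or TATAAA. Among 35116 RefSeq promoters, 40.1% hold GGGCGG in the same window, 28.0% CCAAT and 8.59% TATAAA on either strand, and a match is a description of letters only.

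Other factors showed shifts between transcripts that did not pass the test. EIF3B-202 was at 22.2, 25.5 and 29.2 FPKM in shALKBH3 replicates 1, 2 and 3, against 14.4, 14.9 and 9.32 FPKM in NC replicates 1, 2 and 3, and EIF3B-201 was at 14.9, 10.6 and 5.87 FPKM in shALKBH3 replicates 1, 2 and 3, against 23.8, 24.2 and 27.8 FPKM in NC replicates 1, 2 and 3. Neither transcript overlapped between the groups (log2 differences 0.96 and -1.28, limma adjusted p = 0.240 and 0.295), while their sum was 36.1 ± 0.982 FPKM in shALKBH3 and 38.1 ± 1.02 FPKM in NC libraries (SD, 3 libraries each). EIF3D-206, a minor transcript, was at 0.178 to 0.218 FPKM in shALKBH3 and 2.18 to 5.85 FPKM in NC libraries (adjusted p = 0.141). With means of 0.203 FPKM in shALKBH3 and 3.68 FPKM in NC libraries, it too was listed and tested only through the NC group. At an unadjusted p under 0.05, 15 factor transcripts were lower and 9 higher, with 4.75% and 4.99% of all transcripts. Of the 213 listed factor transcripts 36 were at 0 in at least 1 library, and 17 factors rested on a single listed transcript.

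Differences among the factors varied with transcript length, whose part in the results was not tested. All 12 tested factors with transcripts under 1500 nucleotides had negative log2 differences, with a median of -0.29. Of the 1755 tested genes of that length 75.5% were negative, with a median of -0.17. The 22 factors of 3000 nucleotides and over had a median of -0.021, against 0.078 for the 5008 tested genes of that length. Across the 59 factors Spearman's rho between length and log2 difference was 0.47, and across all 10475 tested genes 0.35, where genes share libraries and are not independent replicates. With length and GC content corrected for, the median of the factors was -0.074 and 41 of 59 (69.5%) were negative. For all tested genes the median was then -0.0031, with 50.6% negative.

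**Figure D4:**
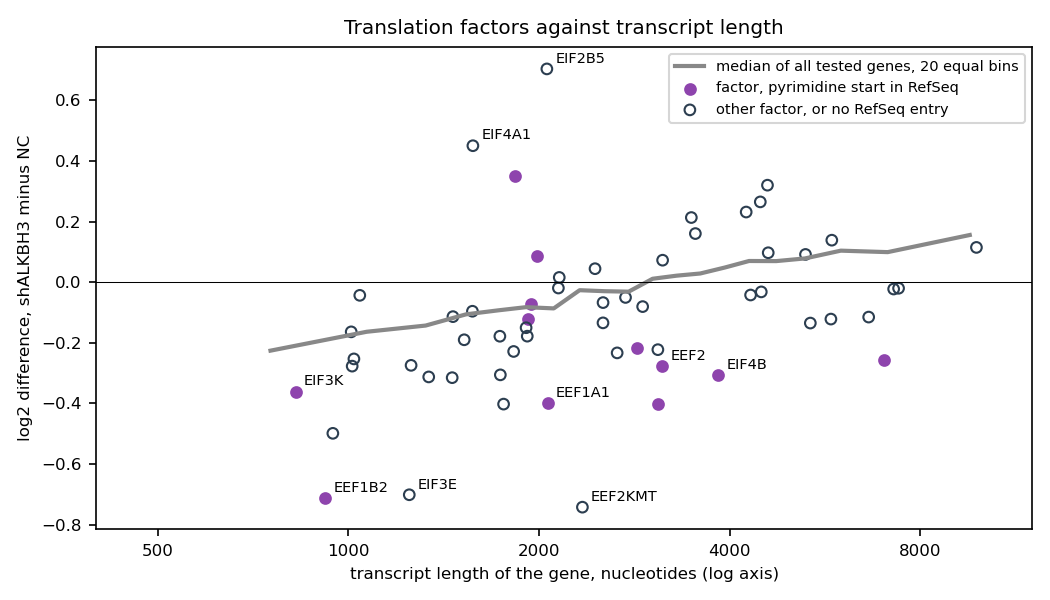
Log2 difference, shALKBH3 minus NC, of each tested translation factor gene against its transcript length on a log axis, with factors that have an annotated pyrimidine start as filled points. The grey line is the median of all tested genes in 20 bins of equal size. Factors under 1500 nucleotides all lie below 0, and EEF2 and EIF4B lie below the line at longer lengths.

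The factors with an annotated pyrimidine start, 7 of them with the sequences printed above, were EEF1A1, EEF1B2, EEF2, EIF2A, EIF2D, EIF2S3, EIF3D, EIF3F, EIF3K, EIF3M, EIF4A2 and EIF4B. Their median log2 difference was -0.27, with 10 of 12 negative, and that of the 34 tested factors with another start was -0.065, with 23 negative. In all tested genes with an entry, 8.04% had such a start, with medians of -0.077 with it and -0.0051 without it. This split was chosen after the values had been seen, has no test here, and 13 factors without an entry stand outside it: EIF2S2, EIF2AK1, EIF3A, EIF3CL, EIF3E, EIF3G, EIF3H, EIF3L, EIF4EBP1, EEF1D, EEF2KMT, EEF1AKMT1 and EEF1AKMT3. The transcripts of the 12 had a median length of 2025 nucleotides, against 2487 nucleotides for the other 34. EIF4A2 and EIF3D, with log2 differences of 0.35 and 0.087, carry the same kind of start. For EIF3D the sign differed between transcripts, at -0.96 for EIF3D-201, the most abundant, and 2.74 for EIF3D-203. Neither of these transcripts overlapped between the groups or passed the test (limma adjusted p = 0.464 and 0.581).

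Of 52 other genes of the translation pathway, 50 were tested, 1 rose and 1 fell (with 1.28% and 0.477% of all tested genes). EIF2AK2, described above, was the one that rose. MLST8, a subunit of the mTOR complexes, fell to 3.33, 3.09 and 3.09 FPKM in shALKBH3 replicates 1, 2 and 3, against 5.65, 5.23 and 5.14 FPKM in NC replicates 1, 2 and 3 (log2 difference -0.60, SE 0.0970, limma adjusted p = 0.0456). That call sat at the threshold, and with any 1 of the 6 libraries left out the adjusted p lay between 0.0911 and 0.181. For MTOR, the kinase of both complexes, the log2 difference was 0.039, with an adjusted p of 0.840. PABPC4, a poly(A)-binding protein gene, was at 44.2, 43.5 and 42.5 FPKM in shALKBH3 replicates 1, 2 and 3, against 58.9, 53.3 and 62.2 FPKM in NC replicates 1, 2 and 3 (log2 difference -0.41, adjusted p = 0.0816). None of the 8 termination and recycling genes, the 8 mitochondrial translation factor genes or the 7 tested hypusine and diphthamide genes passed. ATF4, whose mRNA is translated when eIF2 is phosphorylated, averaged 202 FPKM in shALKBH3 and 211 FPKM in NC libraries (log2 difference -0.061, adjusted p = 0.753), and PPP1R15A, which directs the phosphatase to eIF2, had a log2 difference of 0.0032.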

How the data were processed

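The authors deposited 1 table per library with FPKM for each of 28900 transcripts, per the file headers, and the submitters' processing notes name hg19, HTSeq 0.6.0 and DESeq2 without their roles. The aligner, the annotation and the tool behind the FPKM: not given in the sources used here. In every listed transcript the higher group mean is at least 0.5 FPKM. Of the identifiers, 28796 (99.6%) matched GENCODE release 29, and FPKM were summed per gene. Fragments divided between transcripts of a gene make single transcripts less certain than sums. Depth is unknown, so no counting interval is given.

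Genes averaging 1 FPKM or more were tested as log2(FPKM + 1) with limma 3.58.1 in R 4.3.3 (variance trend, two-sided, Benjamini-Hochberg over all tested genes, threshold 0.05). Fold changes on that scale understate those of low genes. The members, lists and the rule for named genes (per complex the smallest p and the highest level, plus calls and non-overlapping differences of at least 0.5) were chosen with earlier results of these data known. Other genes, transcripts and sequences named were chosen after their values were seen. Alternatives covered pseudocount, filter, scaling, length and GC content, most abundant transcript, variance trend, replicate block and leaving out each library. The test was checked on simulated data with known folds. How often it recovered small differences is not given here, so the lack of calls among the factors does not show them to be unchanged. Python 3.11.15, pandas 2.3.3, numpy 2.4.6 and matplotlib 3.10.9 made tables and figures.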

Additional observations from a re-analysis of the deposited data

How the results depend on the processing

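Group sizes of 3 were too small to test for outlying libraries, and unknown depth limits all values. With the replicate number as a block (replicate block), 0 factors and 17 higher and 3 lower of all genes were called, 0 other pathway genes in either direction and 0 factor transcripts. ALKBH3 then stayed at -1.24 on the log2 scale with an adjusted p of 0.0978, EIF2AK2 had 0.0706 and EIF5A-204 0.225. The labels state no pairing, and same-numbered libraries had correlations of deviations of -0.088, 0.075 and -0.012. Whether same-numbered libraries share a culture or a batch was not tested. For the changes below the cause was not tested.

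With all libraries at an equal sum of listed FPKM, at an unadjusted p under 0.05, 5 factors were higher and 5 lower. Those were 8.47% each, with 12.9% and 4.53% of all tested genes. With mitochondrially encoded genes left out of that sum, 4 factors were higher and 7 lower. Those were 6.78% and 11.9%, with 11.5% and 5.36% of all tested genes. All genes called lower then numbered 24 and 27, and 86.3% and 83.1% of calls were higher, against 72.8% as deposited. Under the same 2 scalings the median log2 difference was -0.029 and -0.049 for all factors, -0.11 and -0.13 for eIF3, and 0.18 and 0.16 for eIF4. For the initiator tRNA carriers, the eIF2 subunit genes together with EIF2A and EIF2D, the median was -0.029 and -0.049. It was 0.065 and 0.046 for the eIF4E-binding proteins, and -0.047 and -0.066 for subunit joining and eIF5A. Under the first it was -0.072 for the scanning group, which is EIF1, EIF1B and EIF1AD taken by symbol, and 0.041 for eIF2B. EEF1AKMT1 turned to 0.034 and 0.017 under the 2 scalings. With length and GC content corrected for, 1 factor was called lower (EIF4B), with 58 of all 10475 tested genes called lower and 186 higher. The medians were then -0.074 for all factors, -0.074 for scanning, 0.012 for eIF4 and 0.098 for the eIF4E-binding proteins. EIF4EBP1 turned to 0.098 and EEF1AKMT1 to 0.094.

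For the most abundant transcript of each gene, 80 genes were called higher and 25 lower. The medians were then -0.032 for the initiator tRNA carriers, 0.040 for the kinases, 0.0046 for eIF4 and -0.056 for joining and eIF5A. EIF5A turned to 0.15, and ALKBH3 had -1.24 (limma adjusted p = 0.0644). Quantile normalization gave medians of -0.036 for the eIF4E-binding proteins and -0.10 for eEF2, and no variance trend 27 genes called lower. MLST8 was not called, leaving 0 pathway genes lower, under equal sums, length and GC correction, the most abundant transcript and a mean of at least 5 FPKM, which removed it.

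Leaving out each library in turn gave 1 to 5 factors higher and 6 to 12 lower by unadjusted p under 0.05. Shares of all tested genes were not counted there. At the adjusted threshold 39 to 87 genes were called higher and 9 to 22 lower. Calls then included 0 to 1 pathway genes higher and 0 lower, and 0 to 2 factor transcripts lower. Medians ranged from -0.26 to -0.12 for scanning, -0.19 to -0.059 for the initiator tRNA carriers and 0.026 to 0.11 for eIF4. They ranged from -0.061 to 0.025 for the eIF4E-binding proteins and -0.18 to -0.070 for joining and eIF5A. ALKBH3 ranged from -1.32 to -1.17, with an adjusted p of 0.0513 without NC replicate 1. EIF2B1 ranged from -0.015 (without NC replicate 2) to 0.10, and EEF1AKMT1 from -0.13 to 0.096 (without shALKBH3 replicate 1).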
